A study of Mus musculus with 12 samples.

Results

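Fas, Tnfrsf10b, Bbc3, Pmaip1 and Perp are target genes of p53 that act in cell death, and all 5 were followed by symbol through the expression tables of neural progenitor cells (NPC) and mouse embryonic fibroblasts (MEF). They are 5 of 2477 gene names that the expression tables hold together: all 5 are among the 2416 rows for NPC, and none is among the 111 rows for MEF. The series has 12 libraries of total RNA, 3 in each of 4 groups. The NPC were neurospheres from the E14.5 cortex, kept in EGF and FGF and used at day 4, and the MEF were primary fibroblasts of passage 1 from E14.5 embryos, grown to confluence. All groups carried the genotype labelled Prmt5 F/FER on a mixed C57BL/6 X 129S1/SvlmJ background. In each cell type 3 libraries came from cells given ethanol and 3 from cells given 50 nM 4-hydroxytamoxifen (4-OHT), each for 24 h, to delete Prmt5, the gene of an arginine methyltransferase. No group lacked the conditional allele and received 4-OHT, so the agent and the deletion cannot be told apart.

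As background, p53 is a transcription factor that is held at a low level by Mdm2 and Mdm4 and accumulates under stress. Its death targets feed both routes to apoptosis. Fas and Tnfrsf10b encode receptors at the cell surface that recruit the adaptor FADD and caspase-8 when their ligands bind. Bbc3 (PUMA) and Pmaip1 (NOXA) encode BH3-only proteins that bind the survival proteins of the BCL2 family and so free BAX and BAK to open the outer mitochondrial membrane. Perp encodes a membrane protein with several membrane spans that takes part in p53-dependent death and, in epithelia, in desmosomes. Developing neural progenitors are known for their readiness to die after p53 activation.

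Promoter sequence is shown for the members with an entry in the RefSeq promoter table (GRCm38.p6), Fas and Bbc3, since these genes changed together. Both are read 5′ to 3′ on the plus strand, and capitals mark the GC box, GGGCGG or its reverse complement CCGCCC, searched on both strands with overlaps counted.
Fas, chr19:34290409-34290646: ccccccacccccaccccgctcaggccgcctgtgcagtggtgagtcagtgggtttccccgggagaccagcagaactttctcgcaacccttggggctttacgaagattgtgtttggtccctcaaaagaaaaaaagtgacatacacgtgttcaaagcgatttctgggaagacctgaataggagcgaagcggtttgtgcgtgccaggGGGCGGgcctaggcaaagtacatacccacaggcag
Bbc3, chr7:16309333-16309582: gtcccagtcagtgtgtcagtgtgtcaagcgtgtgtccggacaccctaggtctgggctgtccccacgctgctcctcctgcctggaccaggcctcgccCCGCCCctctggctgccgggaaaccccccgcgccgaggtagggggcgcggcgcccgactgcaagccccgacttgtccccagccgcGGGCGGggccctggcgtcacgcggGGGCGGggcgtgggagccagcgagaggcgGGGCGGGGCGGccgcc
The Fas stretch ends at the base before the gene's first annotated start, and the Bbc3 stretch lies before 1 of its 3 starts in the table, downstream of the gene's most upstream annotated start. Neither stretch overlaps an exon of the GENCODE annotation of that build. Fas held 1 GC box in these letters and Bbc3 held 5, of which the last 2 overlap. At least 1 GC box was found in the 250 bases before 32.7% of all 32851 starts. Over the 250 bases before the start, the G+C content was 56.4% for Fas and 76.4% for Bbc3, against a median of 52.4%, and 97.0% of all starts had a lower value than Bbc3. The other Bbc3 starts had G+C contents of 72.4% and 81.6%. The consensus decamer of the p53 response element was searched on both strands as an exact match and was not in these windows for Fas or for any Bbc3 start, while 7.13% of all starts held it. These matches are descriptions of letters, and the absence of a match says only that the exact decamer is not in that window.

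The expression tables give 1 RPKM value (reads scaled to transcript length and to library size) for each arm of 3 libraries, so no value per library and no spread between libraries can be given. They hold genes with a Cuffdiff p under 0.05, not adjusted, and a fold of at least 1.5 in either direction, and a gene outside them has no value here, which does not make it unchanged. The libraries' depth is not given in the sources used here. The labels do not say whether the libraries of a group came from separate cultures. For the targeted gene Prmt5, the authors' deposited table shows a log2 fold change of -2.76 for NPC cells and -2.48 for MEF cells. A marker of cell identity appears in these tables only where it changed, so the labelled cell types could not be checked by level: 1 of 8 progenitor markers is listed in NPC, and none of 7 fibroblast markers is listed in MEF. In bulk RNA, fewer cells of a type and less RNA per cell cannot be told apart.

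All 5 death genes were higher with 4-OHT in NPC, against 56.6% of all genes listed there, and their median log2 fold change was 1.94, against 0.66 over all listed genes and 0.99 over the 1357 higher genes with a defined fold. As the genes were picked with earlier results known, this count is a description. Of the 861 listed genes that changed by at least 1 on the log2 scale, as all 5 did, 79% were higher. Higher genes also started lower, with a median ethanol level of 0.929 RPKM against 3.15 RPKM over all listed genes. Summed over the 5, the level went from 9.02 to 38.1 RPKM, 4.23-fold higher. Each of the 5 kept an adjusted p under 0.05 when the Cuffdiff p was adjusted by Benjamini-Hochberg as if every one of 55341 annotated gene names had been tested, which gives an upper bound. Of the NPC genes, 947 of 2416, or 39.2%, were higher and under that bound. All 5 also had a deposited p under 0.01 (47.1% of listed genes were higher and met this), at least a doubling (28.1%) and 1 RPKM or more with 4-OHT (34.1%), while Fas, Tnfrsf10b and Pmaip1, 3 of 5, reached 5 RPKM (19.1%).

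**Figure D1:**
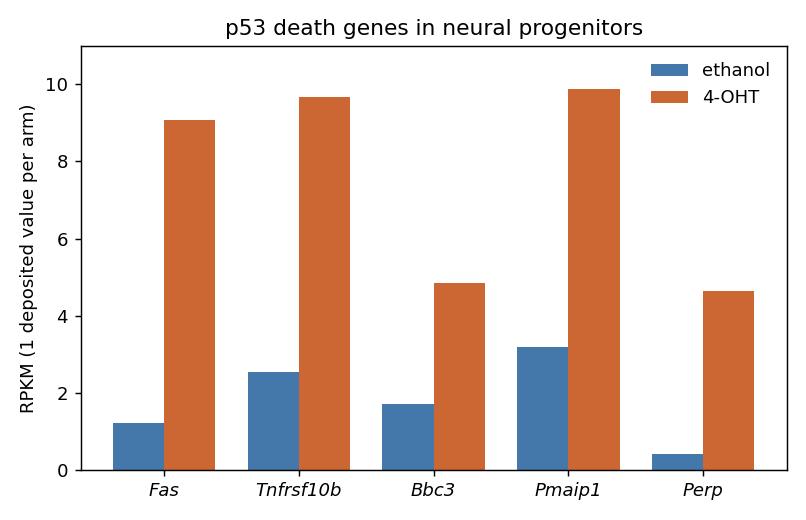
RPKM of the 5 death genes in neural progenitors, with blue bars for ethanol and orange bars for 4-OHT, each bar being the 1 deposited value of an arm without a replicate error. Ethanol values lie between 0.400 and 3.19 RPKM, and 4-OHT values between 4.64 and 9.89 RPKM.

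The death receptors came from different starting levels and ended close together. Fas, the receptor of the FAS ligand, had 1.20 RPKM with ethanol and 9.07 RPKM with 4-OHT in the authors' deposited table. That is 7.56-fold higher, a log2 fold change of 2.92, with a deposited Cuffdiff p of 0 and a bound on the adjusted p of 1.15e-13 (Benjamini-Hochberg). Among the 1367 genes listed as higher in NPC, Fas had the rank 41 by fold. Tnfrsf10b, the mouse receptor of the ligand TRAIL, also called DR5, had 2.53 RPKM with ethanol and 9.69 RPKM with 4-OHT in the authors' deposited table. Its rise was 3.83-fold, a log2 fold change of 1.94, and its rank was 168. The level of Fas was 0.474 times that of Tnfrsf10b with ethanol and 0.936 times with 4-OHT, both per length of transcript.

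The BH3-only genes rose by similar factors from different levels. Pmaip1 (NOXA), whose protein binds mainly the survival protein MCL1, had 3.19 RPKM with ethanol and 9.89 RPKM with 4-OHT in the authors' deposited table. It was 3.10-fold higher, a log2 fold change of 1.63, with rank 264 among the higher genes. Bbc3 (PUMA), whose protein binds all the main survival proteins of the family, had 1.70 RPKM with ethanol and 4.84 RPKM with 4-OHT in the authors' deposited table. It was 2.84-fold higher, a log2 fold change of 1.51, the smallest of the 5, with rank 302. Bbc3 was the member whose deposited Cuffdiff p was above 0, at 2.80e-12, with a bound on the adjusted p of 7.45e-10 (Benjamini-Hochberg). The ratio of Pmaip1 to Bbc3 was 1.88 with ethanol and 2.04 with 4-OHT.

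Perp had the lowest level in both arms and the largest fold of the 5. In the authors' deposited table it had 0.400 RPKM with ethanol and 4.64 RPKM with 4-OHT, 11.6-fold higher, with a log2 fold change of 3.53 and rank 15 among the 1367 higher genes. Of these 1367, 10 had 0 RPKM with ethanol and stand above every defined fold. Measured as a difference in level, the rise of Perp was 4.24 RPKM, below those of Fas (7.87), Tnfrsf10b (7.16) and Pmaip1 (6.70) and above that of Bbc3 (3.14). The order of the genes by size of response thus depended on the measure, a fold or a difference in RPKM.

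With ethanol the order of the levels was Pmaip1, Tnfrsf10b, Bbc3, Fas and Perp, and the highest was 7.98 times the lowest. With 4-OHT the order was Pmaip1, Tnfrsf10b, Fas, Bbc3 and Perp, and the highest was 2.13 times the lowest. Fas moved past Bbc3, and the levels of the 5 genes lay closer to each other. Even the lowest level with 4-OHT, that of Perp, was 1.45 times the highest level with ethanol, that of Pmaip1. Without a spread between libraries, no neighbours in either order can be called different.

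In level the members lay near or below the middle of all listed genes with ethanol and above it with 4-OHT, and in fold toward the upper end of the higher genes. Against the higher genes alone, whose median was 0.929 RPKM with ethanol and 1.98 RPKM with 4-OHT, all but Perp were above the median with ethanol and all 5 were above it with 4-OHT. With ethanol, 23.5% of listed NPC genes were below Perp and 50.3% below Pmaip1. With 4-OHT, 55.8% were below Perp and 72.5% below Pmaip1. By fold, 77.9% of the higher genes rose less than Bbc3, 87.7% less than Tnfrsf10b, 97.0% less than Fas and 98.9% less than Perp. Among the 453 higher genes whose ethanol level lay within the members' range, the median log2 fold change was 0.94, and 66 rose at least as much as Bbc3, the members included. A deposited p of 0 was given to 102 genes, or 4.22% of those listed, of which 91 were higher, and Fas, Tnfrsf10b, Pmaip1 and Perp were among them.

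**Figure D2:**
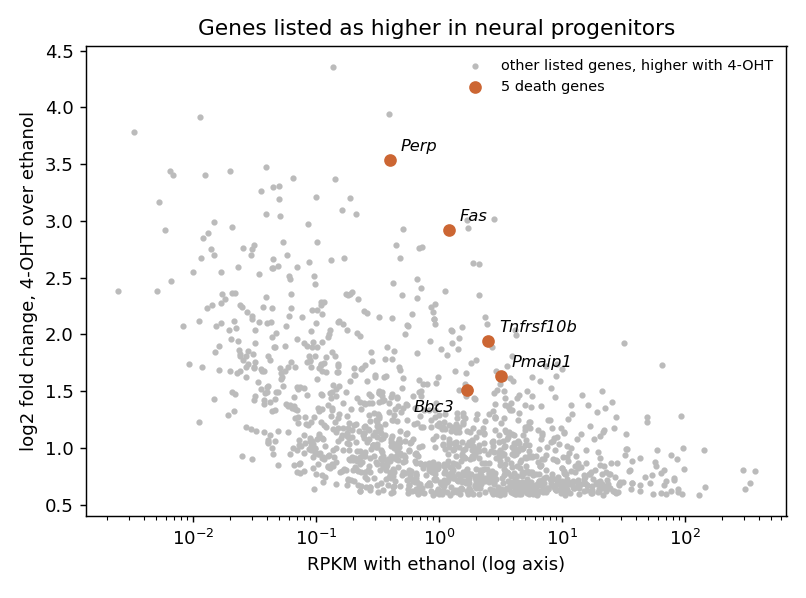
Log2 fold change of 4-OHT over ethanol against the RPKM with ethanol (log axis) for the 1357 genes listed as higher in neural progenitors with a defined fold, 1 point per gene, with the 5 death genes in orange. Perp and Fas lie near the upper edge at log2 fold changes of 3.53 and 2.92, while Bbc3, Pmaip1 and Tnfrsf10b lie between 1.51 and 1.94.

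By likeness of their levels in both NPC arms (the Euclidean distance in log2 RPKM over 2 arms, among 2405 other genes), the genes nearest to each member were named. Bbc3 had the closest neighbour, Rai2, at a distance of 0.06, followed by Ddr2, a collagen receptor, at 0.09. Clu and the amino acid transporter gene Slc7a3 lay nearest to Tnfrsf10b, at 0.10 and 0.12, and Cox7a1 and Fam101a nearest to Pmaip1, at 0.09 and 0.10. Fas and Perp had no neighbour as close: the antigen peptide transporter gene Tap1 and Ppp2r2c lay at 0.62 and 0.63 from Fas, and the meiotic cohesin gene Rec8 and Prrg4 at 0.38 and 0.43 from Perp. With 1 value in each of 2 arms, many genes are alike by this measure.

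The lists of the death pathway hold 89 genes in all, of which 24 are listed in NPC, 21 of them higher and 3 lower. Of all 21900 protein-coding genes in RefSeq, 9.53% are listed there by symbol. Without the 5 members, 19 of 84 are listed, 16 higher and 3 lower, against 56.6% of all listed genes higher. Their median log2 fold change was 0.95, against 0.66 over all listed genes and 0.99 over all higher genes with a defined fold. No listed NPC gene changed by less than 0.585 on the log2 scale. A median over both directions thus mostly follows the share of higher genes. The lists were written with earlier results known, and several were put together as p53 targets, so the counts are no independent evidence of a direction. Genes were matched by symbol alone, so a gene listed under an older name is counted as not listed, here and in the lists below.

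**Figure D3:**
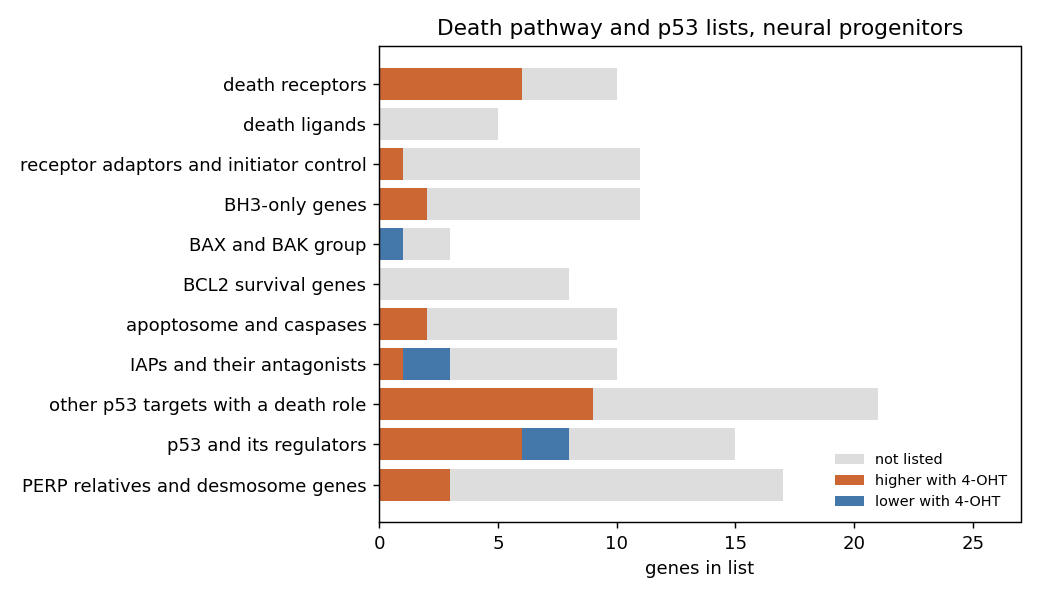
Number of genes in each list that are listed as higher (orange), listed as lower (blue) or not listed (grey) in neural progenitors. Of 10 death receptors 6 are higher. None of the 5 death ligands and none of the 8 BCL2 survival genes is listed, and of all protein-coding genes 9.53% are.

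Besides Fas and Tnfrsf10b, the death receptor list held 4 further listed genes of 10, and all 6 were higher, against 56.6% of all listed genes. In the authors' deposited table Eda2r, a receptor of the TNF receptor family and a p53 target, rose from 21.4 to 47.2 RPKM. The same deposited table shows 21.1 and 33.0 RPKM for Tnfrsf1a, the main receptor of TNF, and 24.8 and 38.8 RPKM for Tnfrsf21 (DR6), rises of 0.64 and 0.65 on the log2 scale. Tnfrsf25 had 0.194 and 0.367 RPKM and did not stay under the bound (adjusted p at most 0.777, Benjamini-Hochberg). Eda2r, Tnfrsf1a and Tnfrsf21 thus started from levels above 20 RPKM, and their factors were smaller than those of Fas and Tnfrsf10b. None of the 5 death ligands, Fasl and Tnfsf10 (TRAIL) included, is listed, where 9.53% of protein-coding genes are. Of 11 adaptors and regulators of the initiator caspase, Fadd, Casp8 and Cflar among them, Faim2 alone is in the authors' deposited table, at 0.103 and 0.199 RPKM with a bound on the adjusted p of 0.295 (Benjamini-Hochberg).

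On the mitochondrial side, Bbc3 and Pmaip1 were the listed members of the 11 BH3-only genes in NPC, where 9.53% of protein-coding genes are listed. Of the pore-forming group, the authors' deposited table holds Bok, which fell from 13.7 to 6.38 RPKM (log2 fold change -1.10), while Bax and Bak1 are not listed. None of the 8 survival genes of the BCL2 family, Mcl1 and Bcl2l1 included, is listed, which for 8 genes is near that share. Of 10 genes of the apoptosome and caspases, the authors' deposited table has Casp1, an inflammatory caspase, rising from 0.164 to 0.698 RPKM. Casp12 had 0.0587 and 0.129 RPKM and a bound of 0.909 (Benjamini-Hochberg), and the initiator Casp9 is not listed. Among 10 inhibitors of apoptosis and their antagonists, Birc5 (survivin), which also serves in mitosis, fell by 0.78 on the log2 scale by the authors' deposited table. In that deposited table Htra2, a mitochondrial protease that counters such inhibitors, fell from 15.3 to 8.33 RPKM. Birc3 had 0.181 and 0.298 RPKM and a bound of 1 (Benjamini-Hochberg).

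**Figure D4:**
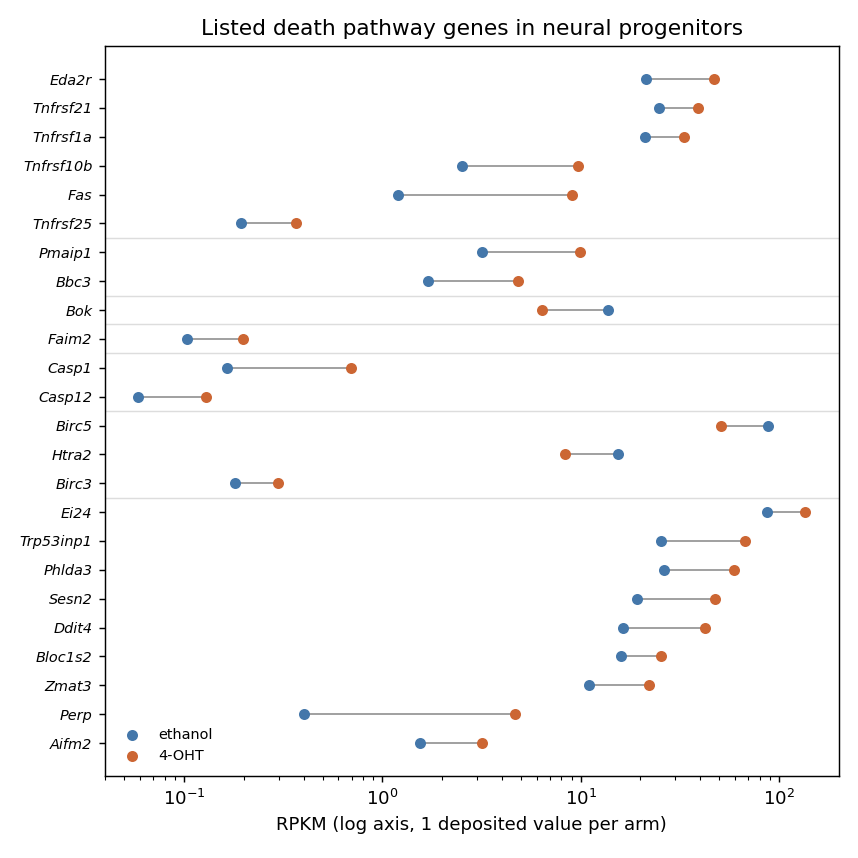
RPKM with ethanol (blue) and with 4-OHT (orange) of the 24 listed death pathway genes in neural progenitors, on a log axis, with lines joining the arms of a gene and horizontal rules between lists. The points of Bok, Birc5 and Htra2 move left with 4-OHT, and those of the other 21 genes move right.

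Of 21 further p53 targets with a role in death or survival, Perp included, 9 are listed in NPC. All 9 were higher, against 56.6% of all listed genes. Their median log2 fold change was 1.18, against 0.99 over all higher genes with a defined fold. By the authors' deposited table, Trp53inp1, which encodes a cofactor of p53, rose from 25.4 to 67.0 RPKM and Phlda3, an inhibitor of AKT, from 26.4 to 59.6 RPKM. The authors' deposited table puts the log2 fold changes of Ddit4 and Sesn2, which restrain mTORC1, at 1.38 and 1.32, and that of Zmat3, an RNA-binding protein gene, at 1.01. Ei24 and Bloc1s2 rose by 0.64 and 0.67 on that scale. Aifm2 had 1.54 and 3.20 RPKM and a bound of 0.721 (Benjamini-Hochberg). Perp had the largest fold of the 9 and the lowest level with ethanol.

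Of 15 genes of p53 and its regulators, a list that also holds the p53 target Cdkn1a, 8 are listed in NPC. Of these, 6 were higher and 2 lower, against 56.6% of all listed genes higher. Under the bound on the adjusted p (Benjamini-Hochberg) stayed 6 of the 8, and the higher genes Trp73 and Ppp1r13b did not. Cdkn1a rose from 65.1 to 216 RPKM by the authors' deposited table. Mdm2, the ligase gene that p53 induces, rose by 1.08 on the log2 scale, from 18.3 to 38.7 RPKM, by the authors' deposited table. The kinase genes Atm and Chek2, which act upstream of p53, fell by 0.82 and 0.72 on the log2 scale in the authors' deposited table. Trp53 and Mdm4 are not listed by expression. A 68 bp exon of Mdm4 (chr1:134901231-134901298 in mm9) had deposited inclusion levels of 0.673, 0.740 and 0.717 with ethanol and 0.431, 0.512 and 0.476 with 4-OHT in the 3 NPC pairs, in a table limited to events with a large difference. A 131 bp exon of Mdm2 (chr10:117146710-117146840 in mm9), listed in 2 pairs of each cell type, had deposited levels of 0.919 and 0.840 with ethanol and 0.473 and 0.454 with 4-OHT in NPC. In MEF its deposited levels were 0.786 and 0.716 with ethanol and 0.563 and 0.506 with 4-OHT. An overlapping 85 bp event of Mdm2, listed in 2 NPC pairs, had 0.959 and 0.913 with ethanol and 0.692 and 0.621 with 4-OHT. In these pairs it has the same exclusion reads as the 131 bp exon, 1 and 3 with ethanol and 16 and 37 with 4-OHT. It is thus no separate record of skipping, and the ethanol levels of both rest on few exclusion reads. None of the 5 death genes has an event in the splicing tables of either cell type.

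Perp was also set beside its relatives and the desmosome genes, since its protein is part of desmosomes in epithelia. Of 17 such genes, Perp included, 3 are listed in NPC, where 9.53% of protein-coding genes are listed, and Perp itself is among the 3. All 3 were higher, against 56.6% of all listed genes. By the authors' deposited table Dsc2, a desmosomal cadherin gene, rose from 1.63 to 3.24 RPKM. Dsp (desmoplakin) had 0.00506 and 0.0263 RPKM in NPC, with a bound of 0.121 (Benjamini-Hochberg). None of 6 keratinocyte and epithelial markers is listed in NPC.

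Some markers of cell types are also listed in NPC, where 9.53% of protein-coding genes are listed and 56.6% of listed genes were higher. Of 4 astrocyte markers 3 are listed, all higher, with a summed level of 68.9 RPKM with ethanol and 122 RPKM with 4-OHT. Of 5 oligodendrocyte markers 4 are listed, all higher, at 7.58 and 21.8 RPKM in sum. The listed astrocyte and oligodendrocyte markers were all under the bound on the adjusted p (Benjamini-Hochberg). Of 7 immune markers 2 are listed, at 0.894 and 2.03 RPKM in sum, 1 of them under that bound. Of 6 endothelial and blood markers 2 are listed, at 0.146 and 0.258 RPKM in sum, neither under it. Of 6 neuron markers 2 are listed, Tubb3 higher and under the bound, and Snap25 lower and not under it. The 1 listed progenitor marker of 8, the Notch effector gene Hes5, fell from 15.8 to 4.77 RPKM by the authors' deposited table. No listed marker was at 0 in either arm, and unlisted markers have no value here. The part of these cell types in the levels of the death genes was not tested.

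In MEF 111 genes are listed, beside 21900 protein-coding genes in RefSeq, and 50.5% of the 111 were higher. None of the 5 death genes is listed there, and with so few genes listed this absence is not particular to them. Their levels in MEF are therefore unknown, and the change in NPC could not be set against a change in MEF. Of the listed MEF genes, 23 had an ethanol level within the range that the 5 genes span in NPC, and 20 of these were higher. In NPC, higher genes had a median ethanol level of 0.929 RPKM, against 3.15 RPKM over all listed genes. A low ethanol level thus goes with higher genes in such a list, and the share says nothing about the 5. The MEF table also holds 8 higher genes whose log2 fold change reached that of Bbc3 in NPC, besides 2 with 0 RPKM with ethanol. Of the higher MEF genes, 0 stayed under the bound on the adjusted p (Benjamini-Hochberg). Why the 5 are not listed in MEF was not tested. Among the 27 higher MEF genes with a defined fold that at least doubled, Cuffdiff p-values ran from 0.000725 to 0.0466. Their highest log2 fold change was 2.02, below those of Fas and Perp in NPC. Of the 89 death pathway genes 2 are listed in MEF, both lower, where 55 of all 111 listed genes were lower. These are the BH3-related gene Bnip3 with 58.5 and 32.8 RPKM, and Birc5 with 39.5 and 21.4 RPKM in the authors' deposited table. Neither stayed under the bound (adjusted p at most 1, Benjamini-Hochberg). Dsp, with 0.819 and 1.67 RPKM in MEF in the authors' deposited table, is the desmosome gene listed in both cell types. None of the 15 genes of p53 and its regulators is listed there by expression.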

How the data were processed

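Base calls, alignment to mm9 and Cuffdiff comparisons used CASAVA 1.8, TopHat2 2.03, Bowtie2 2.0.0.6 and Cuffdiff 2.02, per the submitters' processing notes. The authors deposited 1 RPKM value for each arm, a log2 fold change and an unadjusted p-value per listed gene, per the file headers. The log2 values were recomputed from the RPKM values and differed by at most 1.18e-05. In the splicing tables, the authors deposited inclusion and exclusion read counts and the inclusion level, a fraction of 1, for each pair of libraries. These tables were used for Mdm4 and Mdm2 and to look up the members. No test between groups was run here. Adjusted p-values are upper bounds: Benjamini-Hochberg adjustment took 55341 annotated gene names (GENCODE, GRCm38) as the number tested. P-values of 0 were set to 2.22e-16, the smallest above 0. A check of the bound on simulated data, with fewer than 55341 values, could only come out as met and is no support. Members and lists were chosen with earlier results of these data known. Genes named were the 5 members, listed genes of the lists and the 2 nearest genes by level. RefSeq promoters (GRCm38.p6) matched 2 of 5 members by symbol. Python 3.11.15 and pandas 2.3.3 were used.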

Additional observations from a re-analysis of the deposited data

How the results depend on the processing

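All 5 death genes stayed higher in NPC with a deposited p under 0.01, with a log2 change no smaller than 1, with 1 RPKM or more in the higher arm and by the bound on the adjusted p. With 5 RPKM or more in that arm 3 were left, since Bbc3 and Perp lie at 4.84 and 4.64 RPKM, and 13 of 21 higher death pathway genes were left. Over all NPC genes, 1367 were higher as listed, 680 with a log2 change no smaller than 1, 824 with at least 1 RPKM and 461 with at least 5 RPKM, of 861, 1742 and 1168. In MEF, 56 were higher as listed, 9 with p under 0.01, 29 with a log2 change no smaller than 1, 24 with at least 5 RPKM and 0 by the bound on Cuffdiff's p. With a pseudocount of 1 RPKM the 5 fold changes ran from 1.11 to 2.19 on the log2 scale, and Fas (2.19) stood above Perp (2.01), which led without it at 3.53. No paired analysis was possible because the expression tables hold 1 value per arm, and for the same reason no library could be left out. Other settings for splicing events were not run, as no member has an event.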

Other observations

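Genes next to the death genes were looked up in RefSeq (GRCm38.p6), since the 5 lie on 5 different chromosomes. Of the 50 nearest protein-coding genes, 5 on each side of every member, 2 are listed in NPC, or 4.00%, against 9.53% of all 21900 protein-coding genes. They are Egr3, a transcription factor gene within 5 genes of Tnfrsf10b, and Tnfaip3, an inhibitor of NF-kB signalling within 5 genes of Perp. Both are listed as higher, as are 1214 of 2087 listed protein-coding genes. Their levels were low, at 0.782 RPKM for Egr3 and 0.234 RPKM for Tnfaip3 with 4-OHT. No neighbour of Fas, Bbc3 or Pmaip1 is listed.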
